A study of Mus musculus with 4 samples.

Results

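Tetraspanins are small membrane proteins that cross the membrane several times and gather other proteins, integrins and receptors among them, into patches of the cell surface and of endosomes. In myeloid cells they are known for roles in adhesion, migration, antigen presentation, extracellular vesicles and the fusion of macrophages into osteoclasts and giant cells. The 8 tetraspanin genes Cd9, Cd37, Cd53, Cd63, Cd81, Cd82, Cd151 and Tspan4 were taken by name from the 32285 genes of the matrix, and each was described by stage of arthritis, by cell origin and by cell cluster. All 8 were detected, with 2361 UMIs for Cd82 as the fewest and 106982 UMIs for Cd9 as the most over the 4 libraries (a UMI is 1 counted RNA molecule).

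The libraries were CITE-seq libraries, in which antibodies that carry DNA barcodes are counted beside RNA in each cell. Sorted synovial cells of mouse ankles came from bone marrow chimeras: CD45.2 B6 recipients of CD45.1 B6 marrow, with the ankle shielded from irradiation. Mice of 3 groups had been given K/BxN serum, which sets off serum-transfer arthritis (STIA), and their ankles were collected on day 7 for the peak, day 14 for the plateau and day 56 for the resolution of disease. The baseline group (day 0) was untreated, and each stage had 1 library. The sort took live CD45+ CD11b+ cells and gated out Ly6G, SiglecF, CD64, MHCII, Ly6C and CD177. Ly6g and Siglecf RNA stayed at or under 3.26 CPM in every library, where CPM is UMIs per 1000000 gene UMIs, while Ly6c2 lay between 110 and 466 CPM and H2-Ab1, an MHC class II gene, between 366 and 1287 CPM. The 3 arthritis titles carry the tag Clo-lip, which no label explains and which cannot be told apart from the arthritis stages. The number of mice behind a library is not given in these sources.

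Cell origin was read from the antibody UMIs for the variants of CD45. Cells whose log2((CD45.1 + 1)/(CD45.2 + 1)) was at most -1 were called recipient (CD45.2) and those at least 1 donor (CD45.1). The shielded ankle keeps recipient marrow, so recipient cells made there after the transplant cannot be told apart from cells that lived in the joint before it. The barcodes of these antibodies are shown because every comparison of origin rests on them. They are given whole, 5′ to 3′, in capitals, since all 15 bases are read.
CD45.2: CACCGTCATTCAACC
CD45.1: CCTATGGACTTGGAC

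Cells were kept with 300 or more genes and a mitochondrial share of 10% or less, which left 1071, 5941, 2828 and 4611 cells at baseline, peak, plateau and resolution, with a median of 4912 to 8250 gene UMIs per cell. Recipient cells numbered 190, 219, 239 and 730 over these stages, and donor cells 808, 5576, 2402 and 3249. Pairs of libraries shared 1 to 10 cell barcodes. None of the 92 antibodies of the panel was to any of the 8 proteins, so all values below are RNA. RefSeq also lists pseudogenes of Cd9 and Cd63, so the levels of these genes are uncertain by any reads shared with those copies.

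In mouse build GRCm38 the genes lie on 5 chromosomes. Cd53 is at chr3:106758861-106790149, Cd9 at chr6:125460266-125494760, Cd63 at chr10:128896231-128912822 and Cd82 at chr2:93419102-93462950. The other genes are on chromosome 7, where Cd37 is at chr7:45233632-45239340 and Cd81 at chr7:143052750-143067930, and where Cd151 at chr7:141467362-141471481 is followed by Tspan4 at chr7:141475236-141493427. Promoters of Cd53, Cd37, Cd81 and Cd63 are shown because these genes stand for the contrasting patterns described below: Cd53 and Cd37 were lowest in fibroblast-like cells, whereas Cd81 and Cd63 were high there. Each is the RefSeq sequence (GRCm38.p6) of 300 bases, from 250 before an annotated start to 50 after it, on the gene's strand and 5′ to 3′. The Cd53 and Cd81 windows are at the outer 5′ end of the gene spans given above. The Cd37 and Cd63 windows lie inside those spans, so they belong to starts within the gene and not to its outer 5′ end. Capitals mark GAGGAAGT, the core bound by PU.1-type factors (read on either strand, so that it may appear as ACTTCCTC), and GGGCGG, a GC box (or CCGCCC on the other strand). The motifs did not overlap each other.
Cd53 (chr3:106790100-106790399, minus strand): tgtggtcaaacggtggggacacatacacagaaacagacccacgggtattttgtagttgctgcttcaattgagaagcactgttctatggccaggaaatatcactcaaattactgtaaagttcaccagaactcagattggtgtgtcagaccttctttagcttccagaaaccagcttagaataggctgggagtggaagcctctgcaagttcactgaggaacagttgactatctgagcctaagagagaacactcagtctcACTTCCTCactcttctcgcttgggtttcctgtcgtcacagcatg
Cd37 (chr7:45238790-45239089, minus strand): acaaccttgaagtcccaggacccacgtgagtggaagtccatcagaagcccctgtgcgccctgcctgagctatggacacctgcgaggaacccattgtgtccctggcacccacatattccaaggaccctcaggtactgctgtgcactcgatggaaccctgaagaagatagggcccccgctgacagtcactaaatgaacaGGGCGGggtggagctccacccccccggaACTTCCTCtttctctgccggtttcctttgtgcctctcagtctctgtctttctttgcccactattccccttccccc
Cd81 (chr7:143052500-143052799, plus strand): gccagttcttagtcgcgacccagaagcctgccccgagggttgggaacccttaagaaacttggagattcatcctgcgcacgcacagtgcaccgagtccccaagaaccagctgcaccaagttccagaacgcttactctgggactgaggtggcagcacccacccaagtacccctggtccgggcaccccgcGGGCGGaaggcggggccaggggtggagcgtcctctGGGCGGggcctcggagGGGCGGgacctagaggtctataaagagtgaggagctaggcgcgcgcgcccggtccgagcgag
Cd63 (chr10:128909095-128909394, plus strand): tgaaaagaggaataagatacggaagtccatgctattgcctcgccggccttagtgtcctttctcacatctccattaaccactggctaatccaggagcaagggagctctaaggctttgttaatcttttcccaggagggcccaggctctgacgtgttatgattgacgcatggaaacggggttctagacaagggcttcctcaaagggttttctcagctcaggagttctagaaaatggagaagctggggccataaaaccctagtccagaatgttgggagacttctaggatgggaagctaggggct
GAGGAAGT occurred once in the Cd53 window, beginning 6 bases after the start, and once in the Cd37 window, beginning 25 bases before the start. The Cd81 window held 3 GC boxes, the Cd37 window held 1, and the Cd63 window held neither motif. Of all 13 RefSeq promoters of the 8 genes, 3 held GAGGAAGT, for 3 genes (Cd37, Cd53 and Cd82), and 7 held GGGCGG, for 6 genes. Among all 32851 promoters of the table, 3.20% held GAGGAAGT and 35.7% held GGGCGG. A match describes the letters of a window and no binding was measured.

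Clusters of cells, made from all libraries without the 8 genes, differed in which tetraspanins were high, and some pairs of clusters, such as the resident macrophage-like and Aqp1 Fxyd2 cells described next, had overlapping ranges for all 8 genes. Clusters are called by their leading genes, and a cell type name with "-like" is given only where enough of its markers were present. Each library and cluster with at least 20 cells gave 1 value, and the values below are the median over libraries and the range. The B cell-like cluster and the cluster led by Mcpt4 and Cma1 had fewer than 20 cells in every library. They gave no value, so highest and lowest below refer to the other 20 clusters. These are descriptions, with no test between clusters.

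Cd9, which organises adhesion complexes and restrains fusion of mononuclear phagocytes, was highest in macrophages. It had 2502 CPM in Spp1 macrophage-like cells (2228 to 2587, 3 libraries), 2399 CPM in the cluster led by Aqp1 and Fxyd2 (2328 to 3438, 4 libraries) and 2057 CPM in the cluster led by Rnase2a and Mmp12 (1855 and 2258, 2 libraries). The ranges of the Spp1 and Aqp1 clusters overlapped, so their order is not fixed by these values. Basophil-like cells had 2005 CPM (1 library), within the range of the Rnase2a Mmp12 cluster. Resident macrophage-like cells, led by Vsig4 and Timd4, had 1739 CPM (898 to 2418). Classical monocyte-like cells led by Bmx and Mmp8 had 24.6 CPM (17.4 to 34.3), the lowest of the 20 clusters, and nonclassical monocyte-like cells had 245 CPM (106 to 391).

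Cd63, a protein of late endosomes, lysosomes and extracellular vesicles, had its highest levels among the clusters with values in fibroblast-like and osteoclast-like cells. It reached 2577 CPM in the Prg4 fibroblast-like cluster (2296 and 2858, 2 libraries) and 1842 CPM in the osteoclast-like cluster led by Oscar and Mmp9 (1214 to 2011, 3 libraries). The Mcpt4 cluster, too small to be ranked (10 cells at peak), held 0.515% of Cd63 UMIs in 0.0833% of gene UMIs at peak. The Prg4 cluster held 8.09% in 1.64% there. Spp1 macrophage-like, resident macrophage-like and Aqp1 Fxyd2 cells lay close together, at 1034, 986 and 976 CPM, and their ranges overlapped. The Rnase2a Mmp12 cluster had 78.5 CPM of Cd63 (53.7 and 103), and both libraries lay below every library of the other 3 macrophage clusters. Its Cd9 range overlapped those of Spp1 and resident macrophage-like cells and lay below that of Aqp1 Fxyd2 cells. Nonclassical and Bmx classical monocyte-like cells had 9.18 and 13.8 CPM.

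Cd81, which pairs with CD9 in the membrane, split the same cells in another way. The Rnase2a Mmp12 cluster had 724 CPM (663 and 785), the Aqp1 Fxyd2 cluster 541 CPM (472 to 614) and resident macrophage-like cells 499 CPM (372 to 644). Spp1 macrophage-like cells had 76.0 CPM (34.8 to 177), below every library of those 3 clusters. Osteoclast-like cells of the Oscar Mmp9 cluster had 3.56 CPM (2.76 to 20.4), a range that overlapped that of Bmx classical monocyte-like cells (3.62 to 12.6), and the 406 such cells at plateau held 40 Cd81 UMIs in all. The Myoc fibroblast-like cluster had 793 CPM (454 to 1009).

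**Figure D1:**
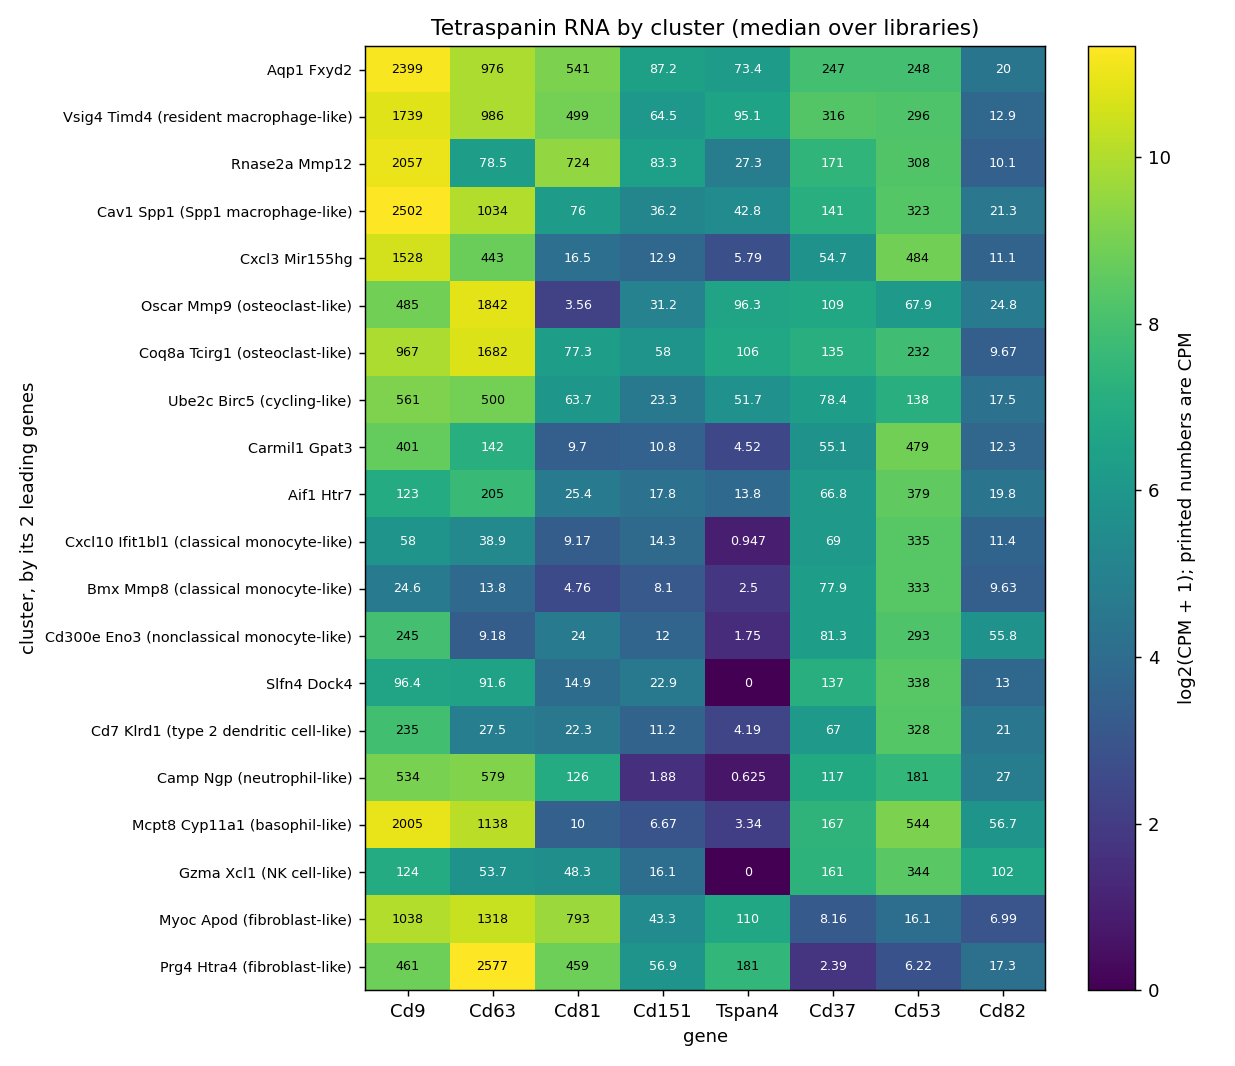
Heat map of the 8 genes (columns) in 20 clusters (lines, named by their 2 leading genes), as the median CPM over the libraries with at least 20 cells of the cluster. Colour gives log2(CPM + 1) and the printed numbers are CPM; Cd81 is at 3.56 CPM in the Oscar Mmp9 cluster and Cd63 is at 78.5 CPM in the Rnase2a Mmp12 cluster, while Cd9 is at 485 and 2057 CPM there.

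Tspan4, a protein of migrasomes, the vesicles that form on retraction fibres of migrating cells, followed Cd63 more closely than any other tetraspanin did. It had 181 CPM in Prg4 and 110 CPM in Myoc fibroblast-like cells, 96.3 CPM in Oscar Mmp9 osteoclast-like cells (67.8 to 120), 95.1 CPM in resident macrophage-like cells (77 to 112) and 73.4 CPM in Aqp1 Fxyd2 cells (64.9 to 81.7). In the clusters led by Bmx and by Cd300e, classical and nonclassical monocyte-like cells, it had 2.5 and 1.75 CPM. Cd151, a partner of laminin-binding integrins, was highest in the Aqp1 Fxyd2 cluster, at 87.2 CPM (70.3 to 131), beside 83.3 CPM in the Rnase2a Mmp12 cluster (82.2 and 84.4) and 64.5 CPM in resident macrophage-like cells (50.6 to 107). These 3 ranges overlapped.

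Cd37 and Cd53, tetraspanins known from blood cells, were found in all leukocyte clusters. Among the 20 clusters with values, Cd37, a partner of the fungal receptor Dectin-1, was highest in resident macrophage-like cells at 316 CPM (231 to 399). Aqp1 Fxyd2 cells followed at 247 CPM (147 to 289), against 77.9 CPM in Bmx classical monocyte-like cells (69.3 to 85.8). The B cell-like cluster, too small to be ranked (4 cells at baseline), held 1.55% of Cd37 UMIs in 0.110% of gene UMIs at baseline. Resident macrophage-like cells held 28.8% in 8.94% there. Cd53, which keeps L-selectin on the surface of leukocytes, was highest in basophil-like cells at 544 CPM (1 library) and in the clusters led by Cxcl3 and by Carmil1 at 484 and 479 CPM (2 libraries each), with 333 CPM in Bmx classical monocyte-like cells (255 to 406) and 296 CPM in resident macrophage-like cells (199 to 367). Its level in Oscar Mmp9 osteoclast-like cells was 67.9 CPM and varied little, between 67.1 and 70.1 CPM. The Prg4 fibroblast-like cluster had 2.39 CPM of Cd37 and 6.22 CPM of Cd53, and the Myoc cluster had 8.16 CPM (0 to 29.9) and 16.1 CPM (4.22 to 139). Cd82, known as a suppressor of migration and metastasis, was highest in NK cell-like cells at 102 CPM (1 library). The leading genes of that cluster also included the T cell genes Cd3g, Cd3d, Trbc1 and Trbc2. Cd82 was at 55.8 CPM in nonclassical monocyte-like cells (41.3 to 69.8), and each remaining cluster but the basophil-like one had a median of at most 27.0 CPM.

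Shares of cells with at least 1 UMI, after thinning each cell to 2000 gene UMIs, gave the same picture. Cd63 was seen in 92.9% of Oscar Mmp9 osteoclast-like cells (95% Clopper-Pearson interval 90.6% to 94.7%, 630 cells), in 79.5% of resident macrophage-like cells (518 cells) and in 15% of Rnase2a Mmp12 cells (12.9% to 17.4%, 1006 cells). In Bmx classical monocyte-like cells it was seen in 2.39% (1839 cells). Cd81 was seen in 1.27% of the osteoclast-like cells (0.550% to 2.49%), in 61.8% of the resident macrophage-like cells and in 1.09% of Bmx classical monocyte-like cells. Before thinning, Cd81 was seen in 6.81% of osteoclast-like cells (median 25915 UMIs), 84.6% of resident macrophage-like cells (6488 UMIs) and 3.29% of Bmx classical monocyte-like cells (7053 UMIs), and Cd63 in 98.9%, 95.2% and 8.99% of these, with 28.4% in Rnase2a Mmp12 cells (6869.5 UMIs). The thinned 1.27% of Cd81 in osteoclast-like cells was near the 1.09% of Bmx classical monocyte-like cells. Free RNA can give a low share in any cell, and its part in these shares was not tested. The intervals cover counting error alone.

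Over the 54 sums of 1 library and 1 cluster (20 clusters, 4 libraries), Pearson's r of log2(CPM + 10) was 0.80 between Cd63 and Tspan4, 0.76 between Cd151 and Tspan4, 0.73 between Cd9 and Cd63, 0.72 between Cd81 and Cd151 and 0.62 between Cd37 and Cd53. Cd53 ran against Tspan4, at -0.67, and against Cd63, at -0.51. The sums share libraries, depth and clusters, so these values are a description. Among all genes the most similar to Cd53 were Plek, Hcls1 and Laptm5 (r of 0.92 to 0.93), and those to Cd37 were Itgb2, Tle4 and Arhgef6 (0.77 to 0.80). The patterns nearest Cd81 were those of Dpysl3, Cavin1 and Crip2 (0.89 to 0.93), nearest Tspan4 those of Timp2, Cd109 and Tmed1 (0.91), and nearest Cd151 those of Trim47, Rhoc and Sept8 (0.85 to 0.92). Cd63 had Actn1, Pdgfa and Akr1b8 (0.81 to 0.84), Cd9 had Cyb5r3, Ahnak2 and Vat1 (0.80), and Cd82 had Ikzf3, H2-Q6 and H2-Q7 (0.64 to 0.67).

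Recipient cells had more Cd63, Cd81 and Tspan4 RNA and less Cd53 RNA than donor cells of the same libraries. The comparison asked how cells of recipient origin differ from cells that came from the transplanted marrow. UMI sums per library and origin were compared with edgeR's quasi-likelihood test, with the library as block and Benjamini-Hochberg adjustment over 11498 genes. Of these genes, 9.85% were higher and 9.95% were lower in recipient cells at an adjusted p under 0.05, 19.8% in either direction, and 4 of the 8 tetraspanins passed. The median log2 fold change of the 8, recipient over donor, was 0.86, beside 0.02 for all genes tested. Levels in the next sentences are scaled by TMM, edgeR's correction of library totals.

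Tspan4 had 70.2, 95.4, 100 and 77.1 CPM in recipient cells at baseline, peak, plateau and resolution, against 6.33, 20.9, 69.5 and 32.8 CPM in donor cells. All recipient values lay above all donor values, with 70.2 CPM in baseline recipient cells just above 69.5 CPM in plateau donor cells. The log2 fold change was 1.78 (SE 0.45, adjusted p = 0.0373, edgeR), higher in recipient cells in 4 of 4 libraries. Cd63 had 815, 1476, 1644 and 631 CPM in recipient cells, against 95.9, 417, 1173 and 269 CPM in donor cells. The groups overlapped across stages, although recipient cells were higher in each of the 4 libraries, with a log2 fold change of 1.64 (SE 0.41, adjusted p = 0.0364, edgeR).

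Cd81 had 465, 165, 163 and 619 CPM in recipient cells, against 95.6, 36.9, 52.9 and 451 CPM in donor cells. Both origins were lowest at peak and plateau, and recipient cells were higher in 4 of 4 libraries, with a log2 fold change of 1.64 (SE 0.32, adjusted p = 0.0163, edgeR). Cd53 went the other way, with 166, 112, 93.9 and 225 CPM in recipient cells, against 271, 406, 262 and 287 CPM in donor cells. The groups did not overlap, and the log2 fold change was -1.10 (SE 0.27, adjusted p = 0.0343, edgeR), lower in recipient cells in 4 of 4 libraries.

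The other 4 genes did not pass the threshold. Cd37 was at 105 to 273 CPM in recipient cells and 73.1 to 163 CPM in donor cells, with a log2 fold change of 0.70 (SE 0.20, adjusted p = 0.0504, edgeR) and higher values in recipient cells in 4 of 4 libraries. Cd151 was at 31.2 to 90.4 CPM in recipient cells and 16.2 to 69.2 CPM in donor cells, with a log2 fold change of 0.93 (SE 0.27, adjusted p = 0.0548, edgeR), also higher in 4 of 4 libraries. Both sat at the edge of the threshold. Cd9 had a log2 fold change of 0.79 (SE 0.44, adjusted p = 0.237) and Cd82 of -0.61 (SE 0.22, adjusted p = 0.0893).

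**Figure D2:**
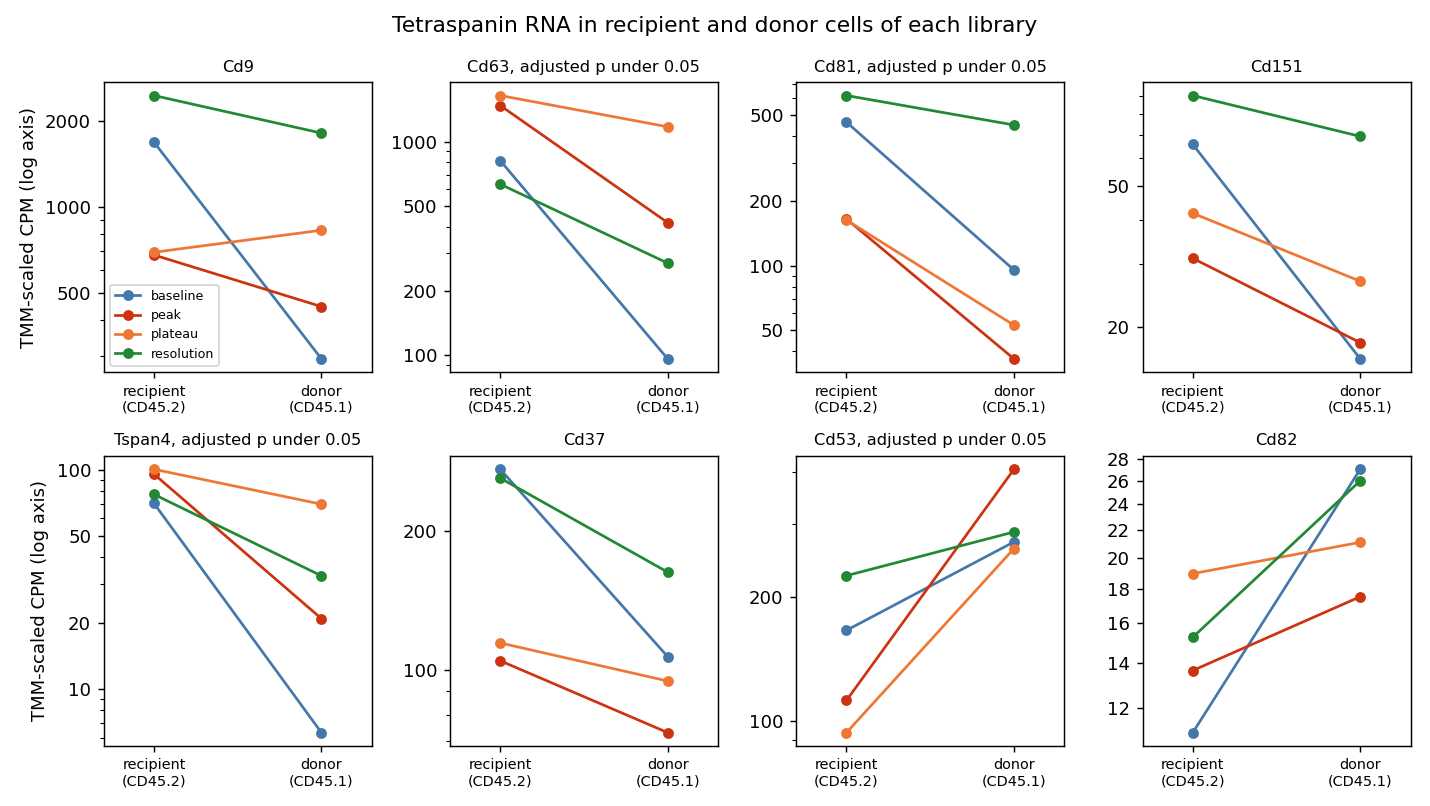
TMM-scaled CPM (log axis) of the 8 genes in recipient (left) and donor (right) cells, 1 panel per gene, with 1 line joining the values of each library. Lines of Cd63, Cd81 and Tspan4 fall towards the donor side in all 4 libraries and those of Cd53 climb, and the Cd9 line of the plateau library runs against the other 3.

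The size of the difference varied with the stage. The ratios in this paragraph are of CPM without TMM scaling and lie above those of the TMM-scaled levels just given. Tspan4 was 13.7-fold higher in recipient than in donor cells at baseline (95% interval of counting error 9.93 to 19.3), 5.64-fold at peak, 1.58-fold at plateau (1.41 to 1.77) and 2.55-fold at resolution. For Cd63 the ratios were 10.5-fold, 4.37-fold, 1.53-fold and 2.54-fold in that order. Cd81 was 6.04-fold higher in recipient cells at baseline, 5.53-fold at peak, 3.37-fold at plateau and 1.49-fold at resolution (1.43 to 1.55). Cd9 was 7.12-fold higher at baseline (6.76 to 7.51), and at plateau recipient cells had 753 CPM against 823 CPM in donor cells. With 1 library per stage, whether the ratio differs between stages could not be tested.

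These sums hold different mixtures of cells, and fewer cells of a kind and less RNA per cell cannot be told apart in them. At baseline 58.4% of recipient cells and 0.495% of donor cells were resident macrophage-like, while Bmx classical and nonclassical monocyte-like cells made up 2.63% and 2.11% of recipient cells but 37.0% and 35.3% of donor cells. At resolution the Aqp1 Fxyd2 cluster held 32.1% of recipient and 25.9% of donor cells, and the Rnase2a Mmp12 cluster held 9.86% of recipient and 28.9% of donor cells. Of the 10 resident macrophage markers, 8 were higher in recipient cells by the same test, with a summed level of 2700 to 15777 CPM in recipient cells and 348 to 3106 CPM in donor cells, and 8 of 9 nonclassical monocyte markers were lower. Fibroblast-like cells made up 6.32% to 15.9% of recipient cells and 1.65% to 2.54% of donor cells. Of the 7 fibroblast markers, 6 were higher in recipient cells, with a summed level of 2756 to 10076 CPM in recipient cells and 761 to 2285 CPM in donor cells. All 5 mast cell markers were higher too, at 111 to 1744 CPM in recipient cells and 1.58 to 7.59 CPM in donor cells. The part of macrophage and monocyte numbers in the tetraspanin differences was not tested. Without the fibroblast-like clusters, where 6.07% of 10950 genes were higher and 9.51% lower in recipient cells, the same 4 tetraspanins passed and Cd37 joined them (adjusted p = 0.0319, edgeR). Without those, the NK-like and B-like clusters and the cluster led by mast cell genes, the same 5 passed among 10890 genes, with Cd63 at log2 1.66, Cd81 at 1.89, Tspan4 at 1.77 and Cd37 at 0.81, and with Cd53 again lower in recipient cells (adjusted p of 0.0200 to 0.0456, edgeR).

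The threshold calls depended on single libraries and on the design. Without the library as a block 0 of the 8 genes passed in edgeR (3 at an unadjusted p under 0.05), and with equal weight to each cluster 0 passed in limma (2 unadjusted). Of the 4 genes, none passed without the peak library, where adjusted p-values by edgeR were 0.132 for Cd63, 0.0785 for Cd81, 0.141 for Tspan4 and 0.0835 for Cd53. Cd63 alone passed without the baseline library, Cd63, Cd81 and Tspan4 without the plateau library, and Cd81 and Cd53 without the resolution library. Each kept its direction in these 4 fits that left out a library, whereas Tspan4 was at log2 -0.066 with equal weight to each cluster.

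Origins were also compared within clusters. In all, 12 pairs of 1 cluster and 1 library had at least 20 cells of each origin, and over the pairs with at least 10 UMIs the median log2 ratio of a gene lay between -0.59 (Cd82) and 0.30 (Cd9). In the Aqp1 Fxyd2 cluster, which gave 3 such libraries, Cd9 was at 2916, 2737 and 4037 CPM in recipient cells at baseline, plateau and resolution, against 1731, 2196 and 3340 CPM in donor cells. Cd63 was at 987, 1389 and 869 CPM in recipient cells, against 691, 1090 and 712 CPM in donor cells. Both were higher in recipient cells in 3 of 3 libraries, yet across the 4133 genes tested in this cluster neither passed edgeR's test, at log2 0.44 (SE 0.15, adjusted p = 0.395) for Cd9 and 0.38 (SE 0.12, adjusted p = 0.407) for Cd63. No tetraspanin passed there, 2 had an unadjusted p under 0.05, and 1.02% of all genes passed. The log2 fold changes of Cd53 and Tspan4 in this cluster were -0.08 (SE 0.16) and 0.02 (SE 0.21), with adjusted p-values of 0.976 and 0.9996 by edgeR. For Cd81 the log2 fold change was 0.28 (SE 0.17, adjusted p = 0.801, edgeR). Its recipient level was lower at baseline (522 against 607 CPM) and higher at plateau (709 against 530 CPM) and resolution (729 against 489 CPM).

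Osteoclast-like cells of the Oscar Mmp9 cluster had nearly the same Cd63 in both origins, with 1811 CPM in recipient and 1847 CPM in donor cells at peak and 1911 and 2028 CPM at plateau. Their Cd53 was lower in recipient cells in both libraries, with 63 UMIs in 43 recipient cells against 339 UMIs in 173 donor cells at peak and 77 UMIs in 55 recipient cells against 672 UMIs in 338 donor cells at plateau. As CPM these are ratios of 0.626 (0.468 to 0.816) and 0.604 (0.468 to 0.762), and both intervals of counting error lay below 1. Cd82 was lower by a similar size, at 0.605 (0.359 to 0.940) and 0.625 (0.404 to 0.907). At plateau alone the intervals of Cd9 (ratio 0.765), Tspan4 (0.824) and Cd63 (0.942) lay below 1 as well. Those of Cd37, Cd81 and Cd151 held 1 in both libraries. At resolution the Rnase2a Mmp12 cluster differed most in Cd63, with 352 CPM in 72 recipient cells against 81.7 CPM in 939 donor cells, a ratio of 4.32 (3.67 to 5.05). Tspan4 there was at 59.2 CPM in recipient and 20.7 CPM in donor cells (ratio 2.89, 1.93 to 4.14), whereas Cd9 was at 3099 and 2195 CPM and Cd81 at 1109 and 767 CPM. Each of these has 1 library and no replicate check.

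**Figure D3:**
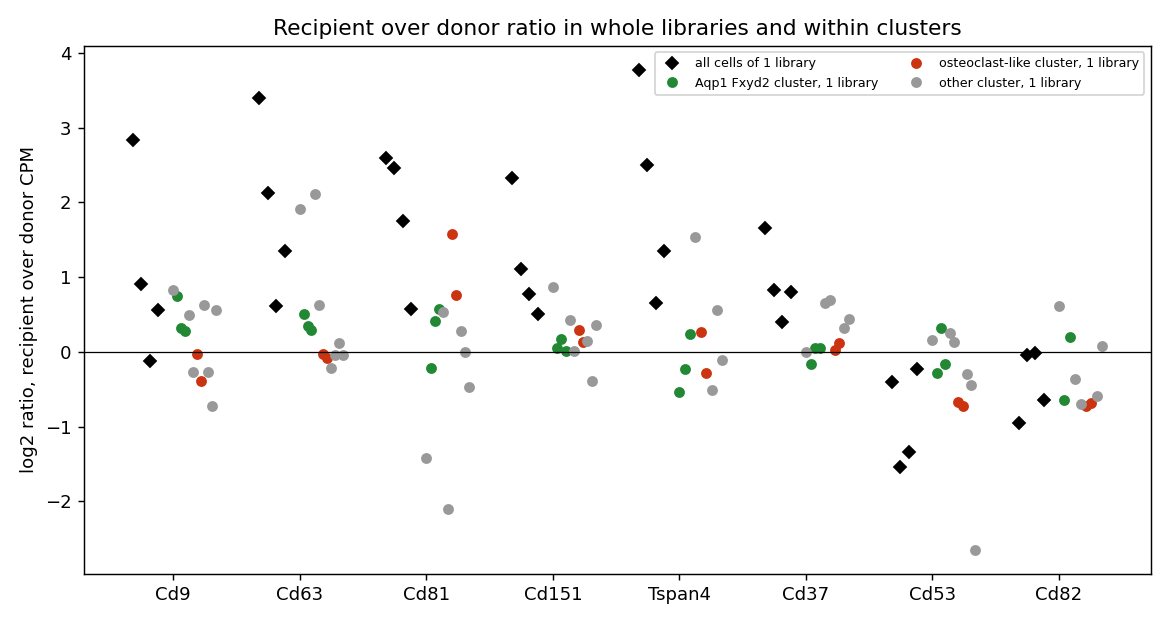
Log2 ratio of recipient over donor CPM for each gene, in all cells of 1 library (black diamonds, 4 per gene) and within 1 cluster of 1 library (circles; green for Aqp1 Fxyd2, red for the Oscar Mmp9 osteoclast-like cluster, grey for others), for pairs with at least 10 UMIs. Tspan4 reaches 3.77 in the baseline library but lies between -0.53 and 0.24 in the Aqp1 Fxyd2 cluster, and the highest Cd63 circle, at 2.11, is the Rnase2a Mmp12 cluster at resolution.

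Over the stages the 8 genes followed 3 courses, described without a test because each stage had 1 library. Counting intervals were narrow and leave out the spread between mice. Cd63 and Tspan4 were highest at plateau. Cd63 had 225, 467, 1312 and 372 CPM in all kept cells at baseline, peak, plateau and resolution, and Tspan4 had 16.6, 26.5, 79.3 and 44.6 CPM. Cd9, Cd37, Cd81, Cd82 and Cd151 were lowest at peak and highest at resolution. Cd9 had 508, 396, 809 and 1983 CPM, Cd81 had 155, 55.6, 92.4 and 494 CPM, Cd151 had 22.7, 16.7, 29.7 and 76.5 CPM and Cd37 had 124, 61.7, 94.4 and 187 CPM. Cd82 had 21.4, 14.2, 20.8 and 24.2 CPM. Cd53 stayed between 225 and 311 CPM and was highest at peak.

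By a size of at least 2-fold, Cd63 was higher at peak than at baseline (8.52% of 13084 genes were) and Cd37 and Cd81 were lower (12.6% were). At plateau against peak, Cd9, Cd63 and Tspan4 were higher (15.1% of genes) and none was lower (5.07%). At resolution against plateau, Cd9, Cd81 and Cd151 were higher (13.4%) and Cd63 was lower (10.5%), with Cd81 5.34-fold higher (5.13 to 5.57) and Cd63 3.52-fold lower (3.45 to 3.60). At resolution against baseline, Cd9, Cd81, Cd151 and Tspan4 were 2.67-fold to 3.90-fold higher (11.8% of genes) and none was 2-fold lower (5.61%). These comparisons share libraries. Without the 6% of cells with most UMIs, of which 38.1% at peak were osteoclast-like, Cd63 at peak against baseline was at log2 -0.12, and with TMM totals Cd37 was at -0.81. TMM scaling shifted the median of all genes by 0.20 at peak against baseline, -0.25 at plateau against peak and -0.15 at resolution against baseline (log2).

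The cells behind each level changed with the stage. At baseline resident macrophage-like cells, 10.8% of the cells and 8.94% of all gene UMIs, held 40.4% of Cd63 UMIs and 51.3% of Tspan4 UMIs. At plateau the Oscar Mmp9 osteoclast-like cluster, 14.4% of the cells and 37.9% of all gene UMIs, held 58.1% of Cd63 and 57.4% of Tspan4 UMIs. At resolution the Aqp1 Fxyd2 cluster (27.6% of the cells and 25.2% of gene UMIs) held 43.7% of Cd9, 50.8% of Cd63 and 46.2% of Tspan4 UMIs, and the Rnase2a Mmp12 cluster (1082 of the 4611 cells and 29.9% of gene UMIs) held 47.5% of Cd81 UMIs. For Cd81 at peak, 59.0% of UMIs came from the Myoc and 10.6% from the Prg4 fibroblast-like cluster, which were 2.02% and 1.28% of the cells and 4.29% and 1.64% of gene UMIs. Without the fibroblast-like clusters the log2 ratio of Cd81 at peak against baseline was -2.91, and -1.48 with them. Given equal weight to each cluster with at least 20 cells in both libraries (8 to 14 clusters), Cd63 at peak against baseline was the one of these 2-fold differences that kept its size, at log2 1.09, and Cd81 at peak against baseline was at 0.037.

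Some of these courses differed between donor and recipient cells. In donor cells, resolution against baseline, Cd9 was at 1846 against 258 CPM, Cd81 at 460 against 84.2 CPM, Cd151 at 70.5 against 14.3 CPM and Tspan4 at 33.4 against 5.58 CPM. In recipient cells the same stages gave 2712 against 1841 CPM for Cd9, 684 against 509 CPM for Cd81, 99.9 against 71.8 CPM for Cd151 and 85.2 against 76.7 CPM for Tspan4. All 4 were more than 4-fold apart in donor cells and under 2-fold apart in recipient cells. They are the genes that passed 2-fold in all kept cells, most of which were donor cells. That choice favours a larger difference in donor cells. The log2 ratios of the others in donor and recipient cells were 1.70 and -0.35 (Cd63), 0.82 and -0.049 (Cd37), 0.29 and 0.45 (Cd53) and 0.15 and 0.46 (Cd82). The difference between origins was not tested.

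**Figure D4:**
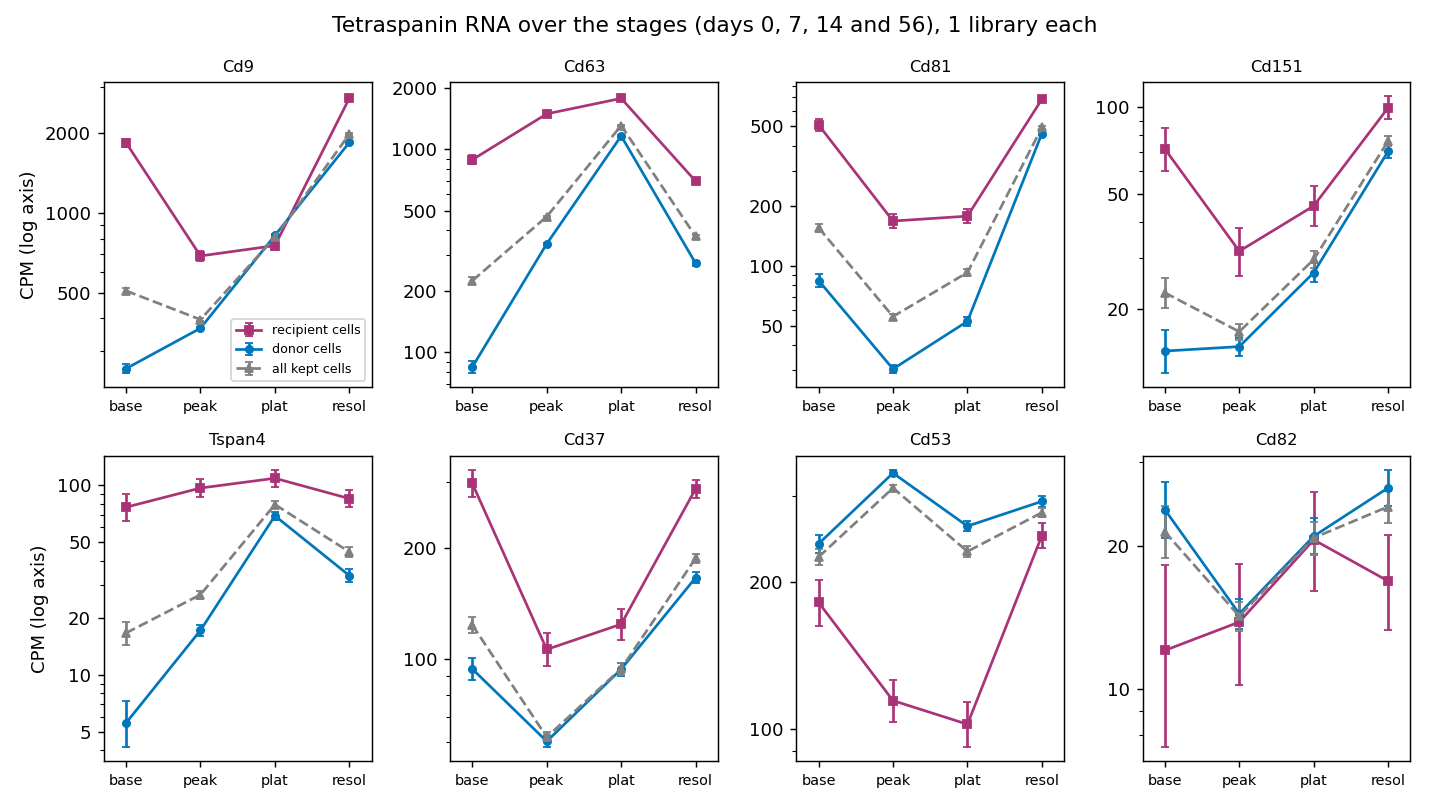
CPM (log axis) of each gene at baseline, peak, plateau and resolution (days 0, 7, 14 and 56) in recipient cells (squares), donor cells (circles) and all kept cells (triangles, dashed), with 95% Poisson intervals of counting error. Donor Cd9 climbs from stage to stage up to 1846 CPM at resolution, while recipient Cd9 is low at peak and plateau (688 and 753 CPM).

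Other genes of the tetraspanin pathway were read from the same test of recipient over donor cells, beside the 9.85% higher and 9.95% lower among all genes. Of 23 other tetraspanins, 9 had enough counts: Tspan3 was higher in recipient cells (log2 1.22, SE 0.33, adjusted p = 0.0436, edgeR) and Tspan32, a tetraspanin of blood cells, was lower (log2 -1.82, SE 0.23, adjusted p = 0.00501, edgeR), with a median of -0.12 for the 9. Tspan32 had 2.27 to 7.93 CPM in recipient cells and 8.13 to 27.1 CPM in donor cells, with no overlap. Of 24 partners of tetraspanins, 19 were tested, 2 were higher and 4 lower, with a median of -0.08. Those with the largest changes were the scavenger receptor Cd36 (log2 1.47) and the protease inhibitor Timp1 (1.05), both higher, and the phosphatase gene Ptprc, which encodes CD45 (-1.44), and the integrin subunit Itga4 (-1.34), both lower. Timp1 also differed by stage, with 8.52, 588, 562 and 22.2 CPM in recipient cells against 3.29, 293, 287 and 11.2 CPM in donor cells.

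Of 18 genes of vesicle and endosome sorting, 17 were tested and Rab27a, a GTPase of vesicle release, was lower in recipient cells (log2 -1.61, adjusted p = 0.0235, edgeR), with none higher and a median of -0.05. Of 12 fusion genes, Cd81 was higher and Adam8 (log2 -1.67), Cd47 (-0.77) and Cd44 (-0.63) were lower, with a median of -0.25. Adam8, a surface protease, had 11 to 47.1 CPM in recipient cells and 35.7 to 180 CPM in donor cells and was lower in recipient cells in 4 of 4 libraries.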

How the data were processed

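The deposited files hold raw UMI counts per gene, antibody and cell, not normalized; per the submitters' processing notes the authors used Cell Ranger 6.1.2, the mm10 build and Seurat 4.4.0, whose role is not stated. Whether cells were filtered before deposit is not given in these sources. Antibody names and barcodes came from the deposited panel list.

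The cell filter asked for 300 genes or more and 10% mitochondrial UMIs or less. Clusters came from 2000 variable genes, the 8 tetraspanins left out, 30 principal components, 15 neighbours and Leiden resolution 0.8 (scanpy 1.11.5, leidenalg 0.10.2). A cluster was named when at least 50% of a type's markers, and no fewer than 3, were detected in 10% of its cells at 2-fold the level elsewhere, and 75% where none was among its 10 leading genes, a rule added after seeing the data. No doublet caller was run; alternatives left out cells that held 10 or more UMIs of each CD45 antibody, and the 6% deepest cells. Recipient and donor sums were tested with edgeR 4.0.16 (R 4.3.3, TMM, filterByExpr, library as block), with DESeq2 1.42.0 and limma 3.58.1 as alternatives. The 4 libraries pair the origins, since both come from the same library. They are 4 stages, so the residual spread also holds any difference between stages, and nothing says how many mice it covers. On simulated counts of 11498 genes this test recovered 68% of 100 genes changed by log2 1 and 100% of 100 changed by log2 2, with 9 false calls. The changed genes were drawn from those with higher levels. The simulation had no stage differences and the same change in every library. Its figures therefore leave out genes with few counts and any variation of the origin difference between stages.

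Stage ratios used 0.5 added counts and exact conditional binomial intervals, over genes with at least 30 UMIs. Levels carry exact 95% Poisson intervals; these cover counting error only. Named genes were the 8 members, for each the 3 genes with the highest correlation among genes reaching 50 CPM, and up to 4 genes per list with the largest change among those past the threshold. Members and lists were chosen with earlier results of these data known. The planned antibody comparison could not be run, since the panel holds no antibody to the 8 proteins and no isotype control.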

Additional observations from a re-analysis of the deposited data

Results flagged for a closer look

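In all, 4 results went in opposite directions in groups of cells under the same comparison with 95% intervals of counting error that lay on opposite sides of a ratio of 1, with 1 library each, and none of these differences was tested. Cd9 at peak against baseline was lower in recipient cells (688 against 1841 CPM) and higher in donor cells (367 against 258 CPM), and the log2 ratios differed by -1.93. Cd53 at peak against baseline was likewise lower in recipient cells (114 against 181 CPM) and higher in donor cells (334 against 239 CPM), with a difference of -1.15. Cd63 at resolution against baseline was at 698 against 891 CPM in recipient cells and at 275 against 84.6 CPM in donor cells, a difference of -2.05. The log2 ratio of Cd9 in recipient over donor cells was 2.83 in the baseline library and -0.13 in the plateau library, a difference of 2.96. The signs also differed between recipient and donor cells, with an interval that held 1 in at least 1 origin, for Cd151 at peak against baseline (-1.18 and 0.047), Cd82 at peak against baseline (0.18 and -0.73), Cd82 at resolution against plateau (-0.29 and 0.34) and Cd37 at resolution against baseline (-0.049 and 0.82). Beside these, resident macrophage-like cells made up 58.4%, 18.3%, 18% and 35.5% of recipient cells from baseline to resolution, and their part in these results was not tested.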

How the results depend on the processing

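The 1132 genes higher and 1144 genes lower in recipient cells numbered 268 and 245 with no library block, 29 and 13 in the Aqp1 Fxyd2 cluster alone (fewer genes and 3 libraries) and 1 and 0 (387 and 301 at an unadjusted p under 0.05, limma) with equal weight to each cluster, which left 1 cluster at baseline, 1 at peak, 4 at plateau and 6 at resolution. The genes higher numbered 709 with a variant limit of 2, 665 without fibroblast-like clusters, 642 without those and the NK-like, B-like and mast gene clusters, and 649 with at least 10 CD45 antibody UMIs, for which the cause was not tested. Leaving out 1 library gave 415 to 870 genes higher and 521 to 1065 lower, the fewest without peak. The 4 tetraspanins past the threshold became 0 without the library block (3 at an unadjusted p under 0.05, edgeR), 0 in the Aqp1 Fxyd2 cluster (2 unadjusted), 0 with equal cluster weight (2 unadjusted, limma) and 0 to 3 on leaving out 1 library (7 unadjusted without peak), but 6 with DESeq2. The sign turned for Cd37 in the Aqp1 Fxyd2 cluster (-0.0067) and for Tspan4 with equal cluster weight (-0.066).

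Of members past 2-fold at peak against baseline, 1 was higher: 0 were with 500 genes and 5% mitochondrial UMIs, without the 6% deepest cells, in recipient cells or without fibroblast-like clusters, and 2 in donor cells. Lower were 2: 1 with TMM totals, in donor cells or without fibroblast-like clusters, 4 in recipient cells and 0 with equal cluster weight. Without the deepest cells, of which 38.1% at peak were osteoclast-like, Cd63 turned to -0.12, and with equal cluster weight Cd81 turned to 0.037. At plateau against peak, 3 were higher, 0 in recipient cells or with equal cluster weight. At resolution against plateau, 3 were higher, 5 in recipient cells and 0 with equal cluster weight, and 1 was lower, 2 in donor cells and 0 with equal cluster weight. At resolution against baseline, 4 were higher and 0 in recipient cells or with equal cluster weight. Leaving out a library was not possible for stages. At Leiden resolutions 0.4 and 1.2 each gene kept its sign between osteoclast-like and resident macrophage-like cells at plateau, with Cd81 at -7.03 and -6.93 (log2). The osteoclast-like cells there pooled the cluster led by Oscar with the shallow one led by Coq8a. Depth limits Cd82 most, with 22 to 77 UMIs in recipient cells of a library.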

Other observations

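Cells that fell in neither CD45 class numbered 73, 146, 187 and 632 from baseline to resolution and entered no comparison of origin. At peak they had 1866 CPM of Cd63, 499 CPM of Cd81 and 143 CPM of Tspan4, and 68.4 CPM of Cd53. At plateau they had 2612, 548 and 176 CPM of the first 3 genes and 47.6 CPM of Cd53. Fibroblast-like cells were 55.5% of them at peak and 45.5% at plateau, against 27.4% at baseline and 17.1% at resolution, and osteoclast-like cells were 6.16% at peak and 45.5% at plateau (85 of 187 cells, as many as the fibroblast-like). At resolution they had 508 CPM of Cd63 and 225 CPM of Cd53. Osteoclast-like cells here were of the Oscar Mmp9 cluster and of a shallow one led by Coq8a and Tcirg1 (median 682 UMIs, 4 of 8 markers). Of 152 plateau cells in the Coq8a cluster, 27 were recipient and 53 donor, against 55 and 338 of 406 Oscar Mmp9 cells. Most osteoclast-like cells in neither class were thus of the Coq8a cluster. Coq8a cells had 77.3 CPM of Cd81 and 232 CPM of Cd53 at plateau, against medians of 3.56 and 67.9 CPM in Oscar Mmp9 cells. The Coq8a values rest on 8 Cd81 and 24 Cd53 UMIs in 152 cells, and the part of free RNA in them was not tested.

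Cells with fewer than 10 UMIs of the CD45 antibodies made up 11.6% to 33.2% of recipient cells and 5.25% to 56.4% of donor cells, with the highest share in donor cells at resolution. Without such cells the same 4 tetraspanins passed and Cd37 passed as well (adjusted p = 0.0375, edgeR).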
